A study of Homo sapiens with 12 samples.

Results

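HMGA2, HIC2 and YOD1 are 3 reported targets of the let-7 miRNA family, and the regions described here are the places on their RNA where AGO2 was mapped. The members were found as all regions of 2 deposited lists, 1 for the 5xA form of AGO2 and 1 for wild-type AGO2, that overlap the RefSeq span of a gene on that gene's strand. By this rule the 3 genes held 19 of the 2921 regions of the 5xA list and 17 of the 1190 regions of the WT list. They were 3 of the 642 genes that held regions in both lists. The genes were selected on their covered bases, the positions of their regions and the sharing between the lists, so these values are a description and carry no test.

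The regions came from eCLIP, which fixes RNA to protein with ultraviolet light, pulls the protein down with an antibody and sequences the RNA fragments that come with it. HCT116 cells, an established line from a human colorectal carcinoma, were grown for 48 h and crosslinked at 400 mJ/cm2. The immunoprecipitates (IP) were made with an anti-FLAG antibody, from cells of the genotype FH-AGO2_5xA (2 IP samples), in which phosphorylated residues of AGO2 are replaced by alanine, and from cells of the genotype FH-AGO2_WT (2 IP samples). How the tagged forms were brought into the cells, whether each line is 1 clone and whether untagged AGO2 remained are not stated in the labels. Inputs of both genotypes and AGO2_KO inputs and IPs complete the 12 samples and were not analysed here. Each list joins the 2 IP samples of its genotype, so no replicate spread can be given, and the read depth behind each list is unknown. A longer 5xA list and a deeper 5xA library cannot be told apart.

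AGO2 carries a miRNA to mRNAs, mostly to sites in their 3′ untranslated regions, where the miRNA pairs through its seed, bases 2 to 8. The pairing lowers the stability and translation of the mRNA. The let-7 family is low in early embryos and many tumours and rises with differentiation, and its targets include genes of growth and of the embryonic state. HMGA2 encodes an AT-hook chromatin protein of embryonic and transformed cells and is a textbook let-7 target with several sites in its 3′ untranslated region. HIC2 encodes a BTB zinc finger transcriptional repressor, and YOD1 encodes a deubiquitinating enzyme of the OTU family.

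The mature let-7 miRNAs are shown because their common seed defines the targets. These 5 are the products of the let-7 genes at which a region was found, from RefSeq (GRCh38.p14), 5′ to 3′, with the seed in capitals.
hsa-let-7a-5p: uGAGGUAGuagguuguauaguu
hsa-let-7b-5p: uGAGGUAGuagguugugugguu
hsa-let-7f-5p: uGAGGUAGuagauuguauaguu
hsa-let-7g-5p: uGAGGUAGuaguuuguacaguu
hsa-let-7i-5p: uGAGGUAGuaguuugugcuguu

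All 5 hold the seed GAGGUAG, whose reverse complement in a target gene is CTACCTC, and they differ only beyond the seed. Counted from the 5′ end, let-7f differs from let-7a by G12A, and let-7i differs from let-7a at 4 positions. The same seed is held by 11 of 2370 human mature miRNA names in the table, of which 9 belong to the let-7 family with miR-98. Of 12 let-7 family miRNA genes, 6 held a region in both lists (MIRLET7A1, MIRLET7A2, MIRLET7A3, MIRLET7B, MIRLET7F2 and MIRLET7I), and MIRLET7F1 and MIRLET7G held one with 5xA only. The covered bases at the 6 genes were 66 to 75 with 5xA and 65 to 78 with WT. No share over all miRNA genes was set beside these gene counts, so they are not read as particular to let-7. MIRLET7A1, MIRLET7A2 and MIRLET7A3 give the same mature let-7a, and MIRLET7F1 and MIRLET7F2 the same mature let-7f. Reads of the mature miRNA alone cannot be told apart between such genes, so their calls per gene are uncertain. No sequence of the 3 gene ends was used here, so seed matches under the regions were not located.

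The HMGA2 mRNA was covered almost without a break at its downstream end in both lists. HMGA2 lies on the plus strand of chromosome 12 at chr12:65824460-65966291 (hg38), a span of 141832 bases. The 5xA list held 5 regions there, and the WT list held 5. With 5xA the downstream run was made of regions 169, 434, 2009 and 312 bases wide, in the order of transcription. With WT it was made of regions 447, 405, 1010 and 952 bases wide. The 4 downstream 5xA regions covered 2924 of the 2996 bases of chr12:65963233-65966228, and the 4 WT regions covered 2814 of the 2822 bases of chr12:65963434-65966255. The breaks between neighbouring regions were 16 to 29 bases with 5xA and 1 to 5 bases with WT.

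These breaks fell at different places in the 2 lists. The 5xA region of 2009 bases, chr12:65963881-65965889, met 3 WT regions. It was the second widest of the 2921 5xA regions. The last WT region, chr12:65965304-65966255, in turn met 2 5xA regions. When regions no more than 50 bases apart were joined, HMGA2 held 2 regions in each list, 1 at each end of the gene. At the downstream end the last region stopped 63 bases before the annotated gene end with 5xA and 36 bases before it with WT. The 5xA run started 201 bases further upstream, where the region of 169 bases was the only 5xA region of HMGA2 that met no WT region.

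**Figure D1:**
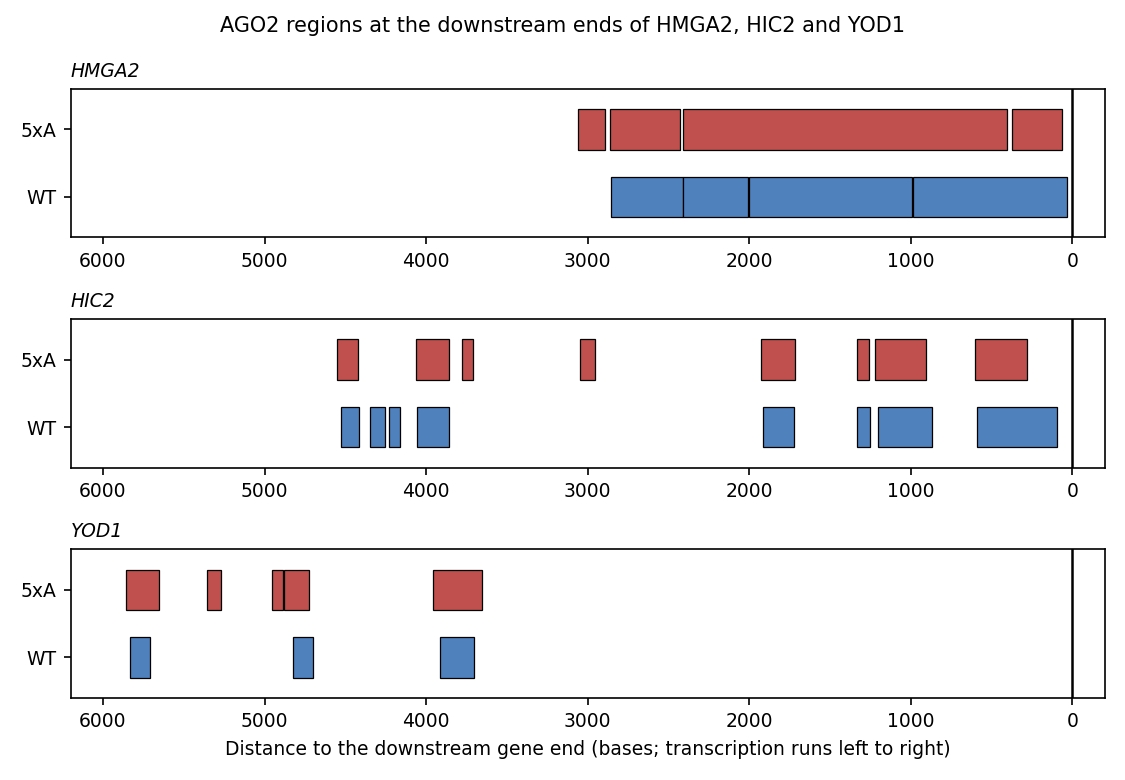
Regions of the 5xA list (upper row of each panel) and the WT list (lower row) near the downstream end of HMGA2, HIC2 and YOD1, drawn to scale by distance in bases to the annotated gene end (vertical line at 0), with transcription running left to right. HMGA2 is covered in a nearly unbroken run in both rows, HIC2 holds 8 separate regions in each row, and the YOD1 regions (5 with 5xA, 3 with WT) all lie at least 3653 bases from the gene end.

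A region at the upstream end of HMGA2 was also in both lists, at nearly the same bases. It was 1043 bases wide with 5xA (chr12:65824381-65825423) and 997 bases wide with WT (chr12:65824385-65825381). Every base of the WT region lay in the 5xA region, which reached 4 bases further upstream and 42 bases further downstream. Both began before the annotated gene start, by 79 bases with 5xA and 75 bases with WT. The span of the pseudogene RPSAP52 also covers this place, and the table used here gives no strand for it, so the regions could come from a transcript other than HMGA2. No region of either list lay between the 2 ends of the gene, over 137809 bases with 5xA and 138052 bases with WT.

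HMGA2 had more covered bases than any other of the 642 genes in both lists, with 5xA (3967 bases) and with WT (3811 bases). The widest single 5xA region, at 6057 bases, lay outside these genes. In HMGA2 the lists had 3741 bases in common, and 226 were covered only by 5xA regions and 70 only by WT regions. The bases in both made up 94.3% of the 5xA bases and 98.2% of the WT bases, beside medians of 57.5% and 94.5% over the 642 genes. HMGA2 alone held 0.979% of all bases in the 5xA list and 2.21% of those in the WT list. In the last 3 kb of the gene 2865 bases were covered with 5xA and 2814 bases with WT, both ranking 1 among 531 protein-coding genes in both lists that are longer than 5 kb. In the last 1 kb HMGA2 ranked 4 with 5xA and 1 with WT, and in the last 5 kb it ranked 2 with 5xA and 1 with WT. Over the last 3 kb the medians of these genes were 183 bases with 5xA and 113 bases with WT.

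**Figure D2:**
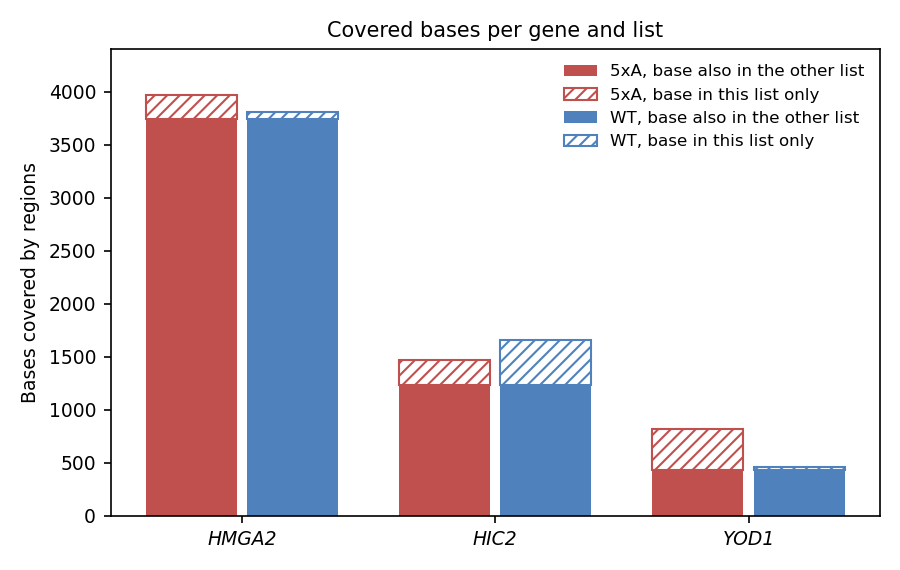
Bases covered by regions in each gene, with the 5xA list left of the WT list. Filled parts are bases covered in both lists and hatched parts are bases covered in that list only. HMGA2 has 3741 bases in both lists, HIC2 has 1232 and YOD1 has 434.

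HIC2 held separate, narrower regions in both lists, and it was the gene of the 3 with fewer covered bases with 5xA. It lies on the plus strand at chr22:21417371-21451463 (34093 bases) and held 9 regions in each list. Covered bases were 1472 with 5xA and 1655 with WT, a ratio of 0.889. The lists had 1232 of these bases in common, and 240 were covered only by 5xA regions and 423 only by WT regions. Thus 83.7% of the 5xA bases and 74.4% of the WT bases were in both, beside medians of 57.5% and 94.5% over the 642 genes. HIC2 ranked 29 of 642 by covered bases with 5xA and 6 with WT. With 9 regions it ranked 14 by number with 5xA and 3 with WT.

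In HIC2, 7 regions of each list paired one to one with a region of the other list. The pairs nearest the upstream end of the gene were chr22:21417404-21417473 with 5xA and chr22:21417386-21417462 with WT, which overlapped by 59 bases. The other 6 pairs lay within 4549 bases of the downstream end. In 3 of the 7 pairs the 5xA region was the wider, by 6 to 13 bases, and in the other 4 the WT region was, by 4 to 175 bases. The largest of these differences was in the last pair, 320 bases with 5xA (chr22:21450861-21451180) and 495 bases with WT (chr22:21450875-21451369). There the WT region ran 189 bases closer to the gene end, which are 189 of the 423 bases covered only by WT regions.

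Each list also held HIC2 regions that met nothing in the other. With 5xA these were chr22:21447688-21447755 (68 bases) and chr22:21448418-21448506 (89 bases). With WT they were chr22:21447119-21447209 (91 bases) and chr22:21447233-21447304 (72 bases). All 4 lay between 2957 and 4345 bases from the downstream end, among regions that were shared. The 2 WT regions were 23 bases apart and would be 1 region if joined. All 4 were narrower than the median region of their own list, which was 104 bases with 5xA and 114 bases with WT.

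Of the 3 genes, YOD1 had the largest difference between the lists in covered bases. It lies on the minus strand at chr1:207043849-207053116 (9268 bases) and held 5 regions with 5xA and 3 with WT. In the order of transcription the 5xA regions were 207, 87, 67, 151 and 305 bases wide, and the WT regions were 125, 123 and 211 bases wide. Covered bases were 817 with 5xA and 459 with WT, a ratio of 1.78. The lists had 434 of these bases in common, and 383 were covered only by 5xA regions and 25 only by WT regions. Thus 53.1% of the 5xA bases and 94.6% of the WT bases were in both. Over the 642 genes the medians of these shares were 57.5% of the 5xA bases and 94.5% of the WT bases.

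All 3 WT regions of YOD1 met a 5xA region, and in each pair the 5xA region was the wider, by 28 to 94 bases. At chr1:207047502-207047806 the 5xA region reached past the WT region by 44 bases upstream and 50 bases downstream. At chr1:207049501-207049707 it did so by 27 bases upstream and 55 bases downstream. The 5xA region chr1:207048576-207048726 instead stopped 25 bases short of the downstream edge of its WT partner and ran 53 bases further upstream. The remaining 5xA regions, chr1:207049118-207049204 (87 bases) and chr1:207048733-207048799 (67 bases), met no WT region, and the second was 6 bases from its neighbour. All YOD1 regions also lie in the span of PFKFB2, for which the table gives no strand, so the regions could come from PFKFB2 if it is read on the same strand.

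**Figure D3:**
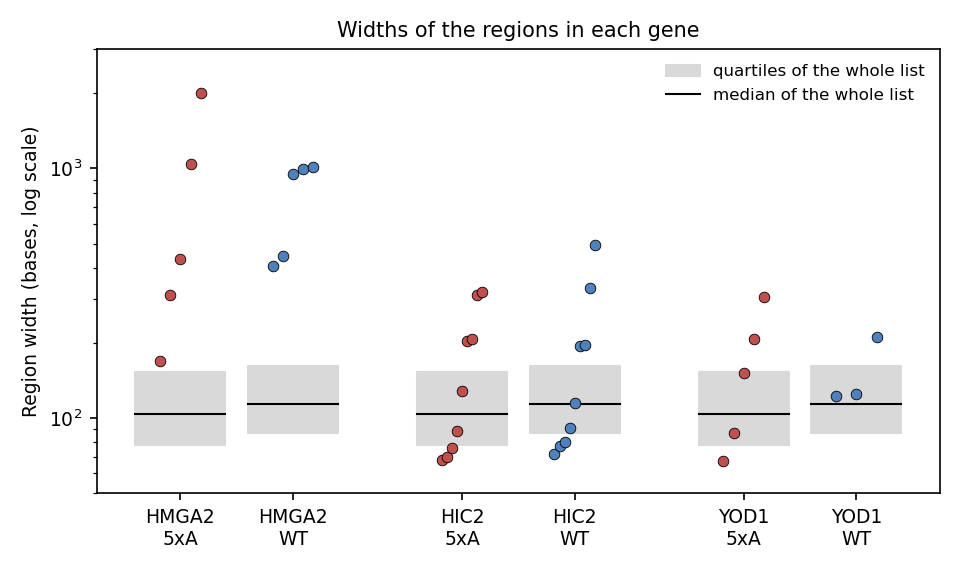
Width in bases (log scale) of every region of the 3 genes, 5xA left of WT for each gene, with the quartiles (grey) and median (line) of the whole list. The HMGA2 regions, 169 to 2009 bases with 5xA and 405 to 1010 bases with WT, all lie above the upper quartile of their list, while the HIC2 regions of both lists and the YOD1 regions of the 5xA list lie on both sides of its median.

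The genes differed in how their regions were built. In HMGA2 all 5 regions of each list were wider than their list's median. In HIC2 this was so for 5 of 9 regions in each list, and in YOD1 for 3 of 5 with 5xA and 3 of 3 with WT. Median widths were 434 bases with 5xA and 952 bases with WT in HMGA2. In HIC2 they were 128 bases with 5xA and 115 bases with WT, and in YOD1 151 bases with 5xA and 125 bases with WT. The 12 one-to-one pairs of the 3 genes had the wider region with 5xA in 7 and with WT in 5. Over both whole lists the 5xA region was the wider in 566 of 847 such pairs and the WT region in 257.

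The genes also differed in where the regions lay. Of the 19 5xA regions 15 were within 5 kb of the downstream gene end, beside 80.2% of all 5xA regions in protein-coding genes longer than 5 kb. Of the 17 WT regions 14 were, beside 82.7% of such WT regions. The last 1 kb of HMGA2 was covered to 91.0% with 5xA and 95.9% with WT, and that of HIC2 to 41.1% with 5xA and 62.7% with WT. YOD1 had no covered base in its last 3 kb in either list. Its regions began 3653 bases from the annotated end with 5xA and 3703 bases from it with WT. The table gives the outermost ends of each gene over all its transcripts, and the transcript end used in HCT116 was not analysed here.

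**Figure D4:**
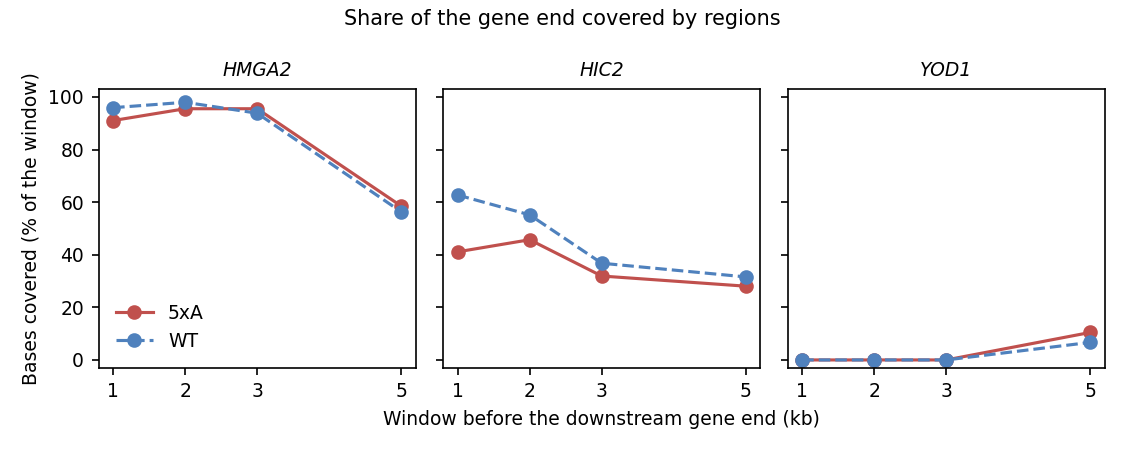
Percent of bases covered in the last 1, 2, 3 and 5 kb of each gene, with 5xA as solid lines and WT as dashed lines. HMGA2 stays above 90% up to 3 kb in both lists, HIC2 falls to 28.0% with 5xA and 31.6% with WT at 5 kb, and YOD1 is at 0 up to 3 kb.

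By sharing, 14 of the 19 5xA regions met a WT region and 15 of the 17 WT regions met a 5xA region, with 1 overlapping base on the same strand being enough. Over the whole lists 32.3% of 5xA regions (95% exact interval 30.6 to 34.0) and 81.3% of WT regions (78.9 to 83.4) did so. These intervals cover the drawing of regions only. Nothing is read from these counts, since the genes were chosen with their sharing known. The 7 regions that met nothing in the other list were 67 to 169 bases wide with 5xA and 72 to 91 bases wide with WT. Some regions about as narrow were shared, as in HIC2 those of 70 and 76 bases with 5xA and of 77 and 80 bases with WT. Whether width bears on sharing was not tested.

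By covered bases, 1 of the 3 genes (YOD1) had at least 1.5 times as many with 5xA, beside 48.3% of the 642 genes in both lists. None of the 3 had at least 1.5 times as many with WT, beside 2.96%. HIC2 had fewer covered bases with 5xA, as did 18.2% of these genes. The median ratio of 5xA over WT covered bases over the 642 genes was 1.46 (quartiles 1.03 and 2.23), and the ratios were 1.04 for HMGA2, 0.889 for HIC2 and 1.78 for YOD1. A ratio at or below that of HMGA2 was found in 26.3% of the genes, and one at or below that of HIC2 in 11.2%. HMGA2 and HIC2 were thus among the lower ratios and YOD1 above the median. No read counts were used, so covered bases do not measure the amount of bound RNA.

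**Figure D5:**
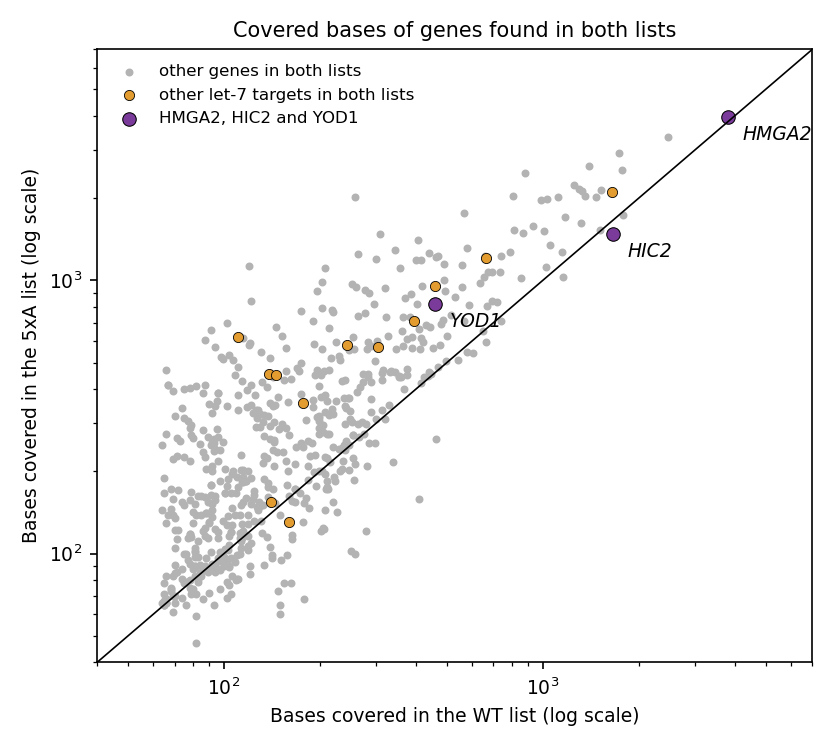
Covered bases with 5xA (vertical axis) against WT (horizontal axis), both on log scales, for the 642 genes found in both lists, with HMGA2, HIC2 and YOD1 in purple, 12 other let-7 targets in orange and equal coverage as the line. HMGA2 is at the upper right end close to the line, HIC2 lies below it and YOD1 above it.

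The other let-7 targets were a set of 48 reported or widely predicted genes, chosen with earlier results of these data known. Both lists held regions of 12 of these genes, while 10 were found in the 5xA list alone, 1 in the WT list alone and 25 in neither. Among 20056 annotated protein-coding genes, which include genes that these cells may not express, 4.32% held regions in the 5xA list alone, 0.339% in the WT list alone and 2.95% in both. In the 12 targets of both lists the median of covered bases was 574.5 with 5xA and 210.5 with WT, beside 250.0 with 5xA and 139.5 with WT over the 642 genes. Their median ratio was 1.94 (0.813 to 5.59), beside 1.46 over the 642 genes. At least 1.5 times as many covered bases with 5xA were found in 9 of the 12, beside 48.3% of the 642 genes. HIC2 and HMGA2 had lower ratios than 11 of these 12 targets, the exception being PLAGL1. They also had more covered bases with WT, 1655 in HIC2 and 3811 in HMGA2, beside 111 to 1650 in the 12 targets. Whether the covered bases with WT bear on the ratio was not tested. Because of how the 48 genes were chosen, these values are a description and carry no test.

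The 6 of the 48 targets with most covered bases, both lists added, were led by CCND1, the gene of cyclin D1, which drives entry into the cell cycle. CCND1 had 2100 covered bases with 5xA and 1650 with WT. DICER1, the nuclease that makes mature miRNAs, had 1206 with 5xA and 665 with WT. The zinc finger gene PLAGL2 had 951 bases with 5xA and 458 with WT. The nuclear receptor gene NR6A1 had 708 bases with 5xA and 394 with WT. ZNF512B had 579 with 5xA and 244 with WT. HMGA1, the paralog of HMGA2, had 570 bases in 3 regions with 5xA and 305 bases in 2 regions with WT. CDK6, a cell cycle kinase gene outside these 6 and named after its values were seen, had more covered bases with 5xA (620) than ZNF512B or HMGA1 but 111 with WT, the highest ratio of the 12 at 5.59. Of the WT bases, a median of 91.0% lay in 5xA regions over the 12 targets, and the share ran from 37.9% (CDC34) to all of the WT bases. Over the 642 genes in both lists the median was 94.5%.

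Genes with like coverage were found among the other 639 genes of both lists by the distance between log2 covered bases in the 2 lists, a measure over 2 lists only. The nearest to HMGA2 was MIDN at a distance of 0.676, with 3338 bases with 5xA and 2466 with WT, followed by TRIB1 (1.22) and ZFP36L1 (1.29). HIC2 was nearest to ZFP36 (0.142), then IGF2 (0.263) and the pseudogene AFG3L1P (0.359). In ZFP36 the 1521 bases with 5xA and 1508 with WT were 1 region in each list, whereas in HIC2 they were spread over 9. YOD1 was nearest to F3 (0.184), DDIT4 (0.190) and CPNE7 (0.204), and F3 had 822 bases with 5xA and 404 with WT.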

How the data were processed

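Sample titles gave the groups. The deposited region lists have a score column that is 0 throughout, so no score was used. Per the submitters' processing notes, positions are on hg38 and the tools include cutadapt 1.9.1 and TopHat2. No source used here names the peak caller, its threshold, how inputs and knockout entered or how replicates were merged, and depth is unknown. Genes came from a RefSeq table of GRCh38.p14, with strands from the RefSeq promoter and miRNA tables for 29079 of 59792 genes. HIC2 and YOD1 were in the promoter table, and the strand of HMGA2 was taken as opposite to its antisense genes there. A region was given to a protein-coding gene first, then a lncRNA gene, then others, the shortest span among several, leaving out genes known to lie on the other strand. Overlaps were counted in Python 3.11.15, checked against bedtools 2.31.1, and tested on simulated data. Intervals are exact Clopper-Pearson. No significance test was run. The members, the let-7 target list and the rules were chosen with earlier results of these data known. Named were the 3 members, the 6 other let-7 targets with most covered bases over both lists added, the 3 genes most like each member and the let-7 genes with a region. PLAGL1, CDK6 and CDC34 were named after their values were seen. Alternatives joined regions, ignored strand, and changed the overlap rule, width, windows and fold. Assigning regions to genes on either strand was added after seeing the data.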

Additional observations from a re-analysis of the deposited data

How the results depend on the processing

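Of 64 values under the alternatives, 51 stayed within 1.5 times the reported one and 13 did not. Joining regions within 50 bases left 2 regions in HMGA2 in each list, where the breaks were at most 29 bases. A reciprocal overlap of 50% left 3 shared WT regions in HMGA2, because 1 5xA region spans several WT regions. Keeping only regions of at least 100 bases left 5 HIC2 regions in each list and 3 YOD1 regions with 5xA. With a window of 3 kb at the gene end, HIC2 had 5 regions with 5xA and 4 with WT, and YOD1 had 0 in both lists. With 10 kb, YOD1 had 5 with 5xA. Within 5 kb of its end YOD1 had 523 covered bases with 5xA. At least 2 times the covered bases with 5xA were found in 29.0% of the genes in both lists. None of the members reached this, the highest ratio among them being 1.78 for YOD1. Ignoring strand, or counting regions within 50 bases as shared, moved no member's count by over 1.5 times, and assigning regions to genes on either strand did not move the let-7 target counts of both lists (12) or 5xA only (10). No paired analysis was possible because each deposited list joins both IP samples of a genotype, and for the same reason no replicate could be left out.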
